A study of Mus musculus with 19 samples.

Results

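A group of 6 genes of hepatocyte identity, nitrogen and bile acid handling was followed through the CpG sites that the authors list as differing in mouse liver. They were Foxa1, Prox1, Nr1i2, Nfe2l2, Ass1 and Cyp7b1, 6 of 21887 coding genes of the RefSeq table, and every listed CpG site in each gene or within 2 kb of either end was taken. The genes were chosen because sites in them are listed, so that they carry sites is a description and is not tested. Cytosine methylation was measured by reduced-representation bisulfite sequencing, in which the enzymes MspI and TaqαI cut out the DNA fragments that are sequenced, in liver from 5 Mat1a knockout (MAT1A KO) mice given SAMe, 6 MAT1A KO mice given placebo and 8 untreated MAT1A WT mice. All animals were 10 months old, and treatment lasted 8 weeks per the series title. Mat1a makes S-adenosylmethionine (SAMe), the methyl donor of the liver. The WT mice received no placebo, so genotype and the placebo or SAMe procedure change together in each comparison with WT. The strain, the design of the knockout allele and the route of SAMe are not given in the sources used here.

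Hepatocytes keep their character through a network of transcription factors that bind each other's genes as well as those of liver enzymes. Foxa1 is a forkhead pioneer factor that opens chromatin for later factors, and Prox1 is a homeobox factor needed for hepatoblast migration and growth of the liver bud. Nr1i2 encodes the pregnane X receptor, which senses drugs and toxic bile acids, and Nfe2l2 encodes NRF2, the activator of antioxidant genes. Ass1 encodes argininosuccinate synthase of the urea cycle, and Cyp7b1 the oxysterol hydroxylase of the alternative pathway of bile acid synthesis.

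The data were the authors' own tables of 3 comparisons, with 1 CpG cytosine per line, its strand, a p-value, a q-value and a difference in percentage points. Every listed site differed by more than 20 points, and the largest q-value was 0.0178 for KO SAMe against WT, 0.0061 for KO placebo against WT and 0.0495 for KO SAMe against KO placebo in the authors' deposited tables. They hold no level, coverage or value for any animal, so depth is unknown, no SD can be given and the liver label could not be checked against marker genes. In whole liver, a changed mix of cell types and a changed methylation per cell cannot be told apart. A site that is missing from a table either lacked coverage or did not pass the thresholds. Which group was subtracted is not stated. Differences are read here as KO minus WT and SAMe minus placebo, and all directions would turn round together if the authors used the other order.

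Each gene's start was examined first, because promoters are where methylation is most often studied. The RefSeq table of start windows (GRCm38.p6, the build with the primary coordinates of mm10) gives 300 bases around a gene's start, 250 before and 50 after, and held 6 windows for 5 of the 6 genes, leaving out Cyp7b1. No listed site of any table fell in any of the 6 windows. The windows differ in how many CpG sites they hold, and 3 are shown for that contrast, 5′ to 3′ on the gene's strand with each CpG in capitals. They lie at chr12:57546062-57546361 on the minus strand (Foxa1), chr2:31470020-31470319 on the plus strand (Ass1) and chr16:38294775-38295074 on the minus strand (Nr1i2).
Foxa1: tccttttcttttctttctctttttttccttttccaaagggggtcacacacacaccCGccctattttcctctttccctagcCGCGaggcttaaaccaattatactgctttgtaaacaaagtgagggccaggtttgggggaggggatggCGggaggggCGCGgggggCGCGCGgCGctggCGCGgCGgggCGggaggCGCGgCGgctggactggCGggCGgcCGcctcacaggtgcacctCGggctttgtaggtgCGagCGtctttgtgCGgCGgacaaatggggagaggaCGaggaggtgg
Ass1: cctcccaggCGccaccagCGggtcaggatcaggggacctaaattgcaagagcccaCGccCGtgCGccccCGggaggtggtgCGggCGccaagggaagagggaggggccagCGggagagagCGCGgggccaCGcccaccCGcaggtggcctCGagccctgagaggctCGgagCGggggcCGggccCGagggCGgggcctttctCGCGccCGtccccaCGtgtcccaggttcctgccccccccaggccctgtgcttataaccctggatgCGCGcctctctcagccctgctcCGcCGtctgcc
Nr1i2: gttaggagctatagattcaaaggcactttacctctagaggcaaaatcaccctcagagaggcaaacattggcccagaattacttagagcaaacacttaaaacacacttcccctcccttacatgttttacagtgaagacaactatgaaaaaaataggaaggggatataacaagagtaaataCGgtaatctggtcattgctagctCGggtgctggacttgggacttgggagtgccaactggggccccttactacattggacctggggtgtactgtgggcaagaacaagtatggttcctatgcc
The Ass1 window held 27 CpG sites, the Foxa1 window 26 and the Nr1i2 window 2, where the median over 32851 windows of the table was 7. The recognition sequences of MspI (CCGG) and TaqαI (TCGA), which read the same on both strands and cannot overlap each other, occurred 2 and 1 times in the Ass1 window and 0 times in the Foxa1 and Nr1i2 windows. Of all windows, 52.8% held CCGG and 22.0% held TCGA. The Nfe2l2 window held 18 CpG sites and the 2 Prox1 windows 25 and 14. A window without a listed site says nothing of its methylation, since coverage there is unknown.

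In KO SAMe against WT, 4 of the 6 genes had listed sites, 6 sites in all, and in KO placebo against WT all 6 had them, with 7 sites. The background was 10.8% of coding genes in KO SAMe against WT and 12.5% in KO placebo against WT, but the genes were chosen from these tables and nothing is read from their count. No site of the 6 genes was listed in KO SAMe against KO placebo, where the background was 0.658%. The sites of both WT comparisons made 8 distinct positions, all lower in KO, as were 99.0% of the sites of KO SAMe against WT and 99.4% of those of KO placebo against WT. The median over genes of the largest difference was −31.6 points over 4 genes in KO SAMe against WT and −26.0 over 6 genes in KO placebo against WT in the authors' deposited tables. Over all coding genes with a listed site it was −28.1 points in KO SAMe against WT and −27.2 points in KO placebo against WT.

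**Figure D1:**
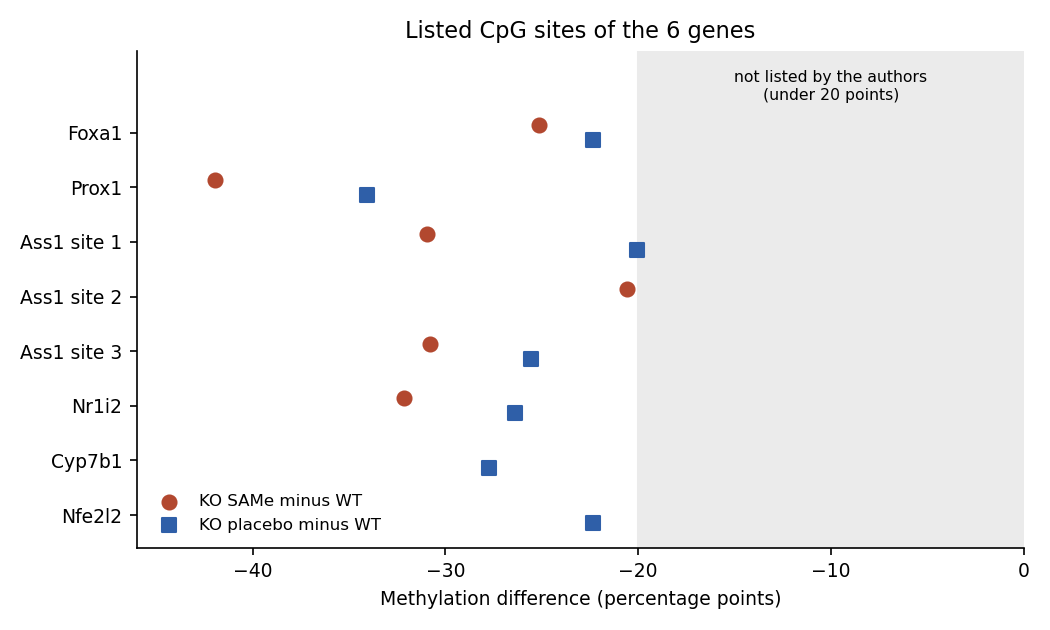
Methylation difference from WT at the 8 listed CpG positions of the 6 genes, in percentage points (horizontal axis), with circles for KO SAMe minus WT and squares for KO placebo minus WT. Values run from −41.9 (Prox1, KO SAMe) to −20.0 (Ass1 site 1, KO placebo), and the grey zone under 20 points holds no listed site.

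Among the transcription factors, Prox1 had the largest difference of the 6 genes. Its only listed site (chromosome 1, position 190137898, plus strand) stood at −41.9 points in KO SAMe against WT and −34.1 points in KO placebo against WT in the authors' deposited tables, with all p- and q-values listed as 0. A loss at least this large was found at 8.49% of the sites of KO SAMe against WT and 19.1% of those of KO placebo against WT. Values of 0 were common, with p listed as 0 at 1958 of 5383 sites of KO SAMe against WT and 2620 of 6721 of KO placebo against WT. The position lies inside the gene (190118035 to 190170827), 32.9 kb downstream of its outer start and 19.9 kb before its end.

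Foxa1 had 1 listed site, and it was the only 1 of the 8 positions outside the gene it was assigned to. The site (chromosome 12, position 57548454, minus strand) stood at −25.1 points in KO SAMe against WT and −22.3 points in KO placebo against WT in the authors' deposited tables, with q-values listed as 0. It lies 425 bp before the outermost Foxa1 start (gene 57540628 to 57548029) and 2343 bp upstream of the Foxa1 start around which the window printed above was taken. The same position is 1750 bp inside Ttc6, a neighbouring gene on the other strand, so it counts for both genes. Losses at least this large were found at 59.0% of the sites of KO SAMe against WT and 75.1% of those of KO placebo against WT.

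The xenobiotic receptor gene Nr1i2 had 1 site (chromosome 16, position 38272862, plus strand) near the middle of the gene (38248349 to 38294849), 22.0 kb from its start. It stood at −32.2 points in KO SAMe against WT (q = 1.01e-06) and −26.4 points in KO placebo against WT (q = 1.33e-05) in the authors' deposited tables. No other listed site lay within 119943 bp of it in either table.

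Nfe2l2 had 1 site (chromosome 2, position 75676369, minus strand), 856 bp inside the 3′ end of the gene (75675513 to 75704663) and 28.3 kb from its start. It was listed in KO placebo against WT at −22.4 points (q = 6.58e-06) in the authors' deposited table and was not listed in KO SAMe against WT. The gene table has no exons, so whether the site is in the 3′ untranslated region was not determined.

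Of the enzymes, Ass1 carried the most sites, 3 in KO SAMe against WT and 2 in KO placebo against WT, all inside the gene (chromosome 2, 31470270 to 31520670, plus strand). The site at position 31497810, 27.5 kb from the start, stood at −31.0 points in KO SAMe against WT (q = 1.14e-07) and −20.0 points in KO placebo against WT (q = 3.19e-04) in the authors' deposited tables. The site at 31511663, 9.01 kb before the gene's end, stood at −30.8 points in KO SAMe against WT and −25.6 points in KO placebo against WT in the authors' deposited tables, with q listed as 0. A further site at 31497998, 188 bp from the first, was listed in KO SAMe against WT at −20.6 points (q = 5.8e-05) in the authors' deposited table and was not listed in KO placebo against WT. The Ass1 mean was −27.5 points over 3 sites in KO SAMe against WT and −22.8 points over 2 sites in KO placebo against WT, and these means cover different sites.

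Cyp7b1 is the longest of the 6 genes, at 172.0 kb (chromosome 3, 18071944 to 18243890), and had 1 site at position 18077291 (minus strand), 5.35 kb inside the end with the lower coordinate. It was listed in KO placebo against WT at −27.7 points (q = 5.7e-07) in the authors' deposited table and was not listed in KO SAMe against WT. Since Cyp7b1 and Nfe2l2 were also not listed in KO SAMe against KO placebo, a difference between the KO groups at these positions was not shown.

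**Figure D2:**
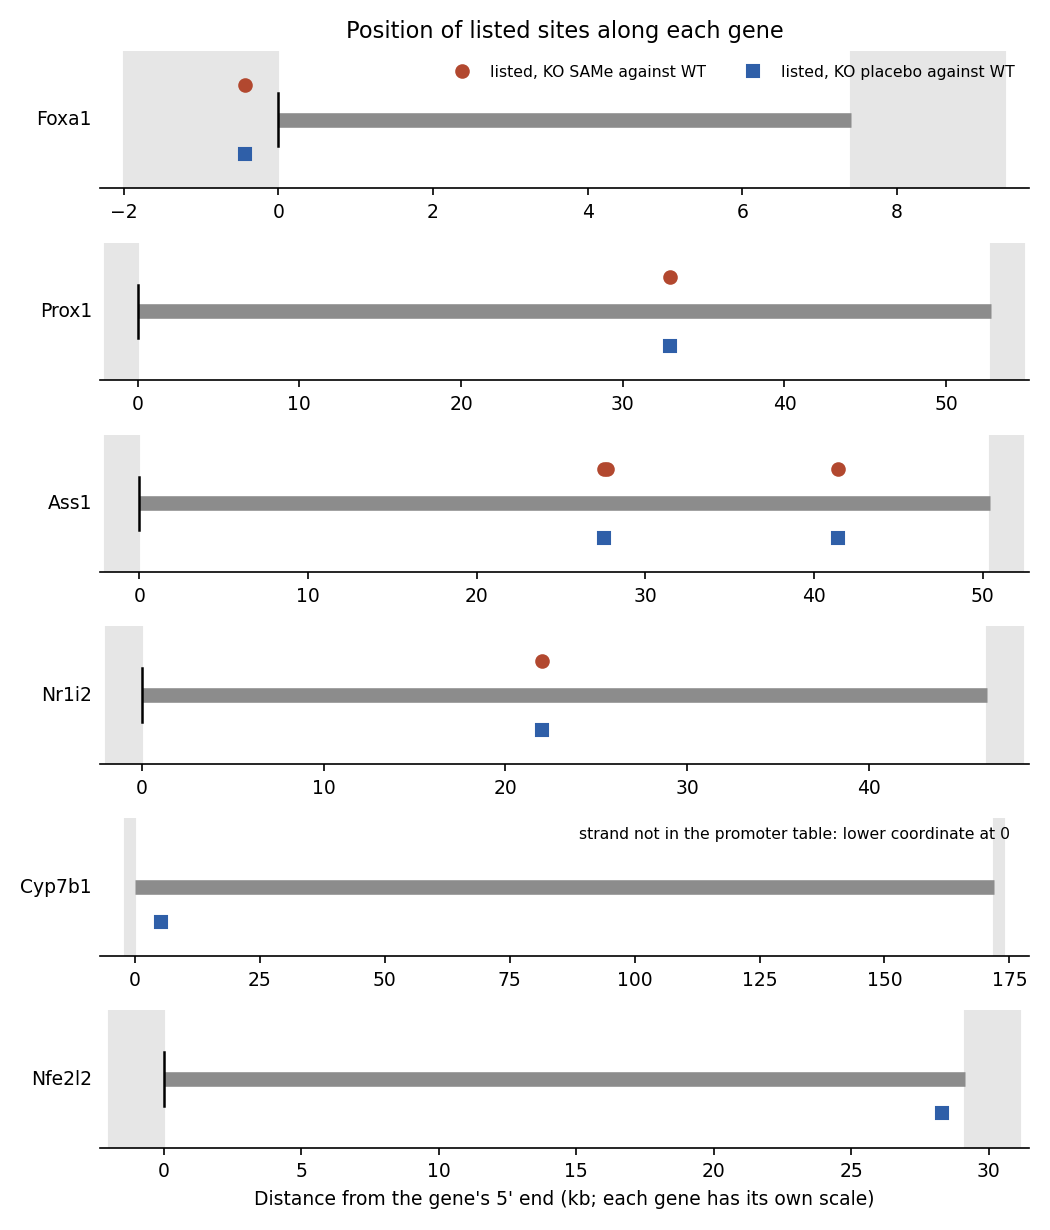
Listed sites along each gene in kb from its 5′ end, drawn to its own scale, with circles above the bar for KO SAMe against WT, squares below it for KO placebo against WT and grey bands for the 2 kb flanks. Cyp7b1 is drawn from its lower coordinate. Of the 8 positions, 7 lie inside a gene and 1, at Foxa1, lies 425 bp before the start.

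The sites were sparse and stood mostly alone. Outside Ass1, the nearest other listed site in KO SAMe against WT was 69.2 kb away for Prox1, 120.0 kb for Nr1i2 and 1250 kb for Foxa1. In KO placebo against WT it was 114 kb away for Nfe2l2, 120.0 kb for Nr1i2, 266 kb for Prox1, 379 kb for Foxa1 and 1100 kb for Cyp7b1. Over all listed sites, the median distance to the nearest other was 178 bp in KO SAMe against WT and 1666 bp in KO placebo against WT. The upper quartile of that distance was 77.3 kb in KO SAMe against WT and 70.3 kb in KO placebo against WT. A single site per gene was also usual. Of coding genes with a listed site, 58.5% in KO SAMe against WT and 56.1% in KO placebo against WT had only 1. At none of the 8 positions was the cytosine on the opposite strand of the same CpG listed in either WT comparison. That was usual, since an opposite-strand partner was listed for 0.78% of sites in KO SAMe against WT and 0.684% in KO placebo against WT. The thresholds bear on which sites are seen. Just inside the threshold of 20 points was the Ass1 site at −20.0 points in KO placebo against WT in the authors' deposited table. The nearest listed site past the 2 kb flank of any of the genes was 21.1 kb from Ass1, at −20.6 points in KO SAMe against WT in the authors' deposited table.

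At 5 positions a difference was listed in both WT comparisons, so the difference between the KO groups follows by subtraction, which removes the shared WT animals. KO SAMe minus KO placebo was −10.9 points at Ass1 position 31497810, −7.89 at Prox1, −5.78 at Nr1i2, −5.23 at Ass1 position 31511663 and −2.79 at Foxa1. All 5 were lower in KO SAMe, with a median of −5.78 points. Positions listed in only 1 WT comparison have no such value. Cyp7b1 (−27.7 points) and Nfe2l2 (−22.4 points) were listed in KO placebo against WT alone. If covered in KO SAMe but short of 20 points there, they would be higher with SAMe. Ass1 position 31497998 (−20.6 points), listed in KO SAMe against WT alone, would on the same condition be lower with SAMe. The shared direction of the 5 thus depends in part on which positions were listed in both. Over the 3707 sites listed in both tables, 54.2% were lower in KO SAMe, with a median of −0.46 points and an SD over sites of 5.85. At the 24 shared sites of the other pathway genes described further on, 17 (70.8%) were lower in KO SAMe, with a median of −3.15 points. Many of the 24 are neighbouring sites of the same genes, Nr2f2, Gata6 and Trf, so they do not stand for 24 genes. Of all 3707 shared sites, 3.8% had a value as low as that of Ass1 position 31497810. A value as low as Prox1 occurred at 8.74% of the 3707 and as low as Foxa1 at 31.7%. None of the 5 was listed when the authors compared the KO groups with each other, no error can be given, and the positions are not replicates. The listing also limits these values. A site at −20.0 points in KO placebo could be listed for KO SAMe on the lower side only at −20 points or beyond, which leaves almost no room for a higher value at the first Ass1 site.

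**Figure D3:**
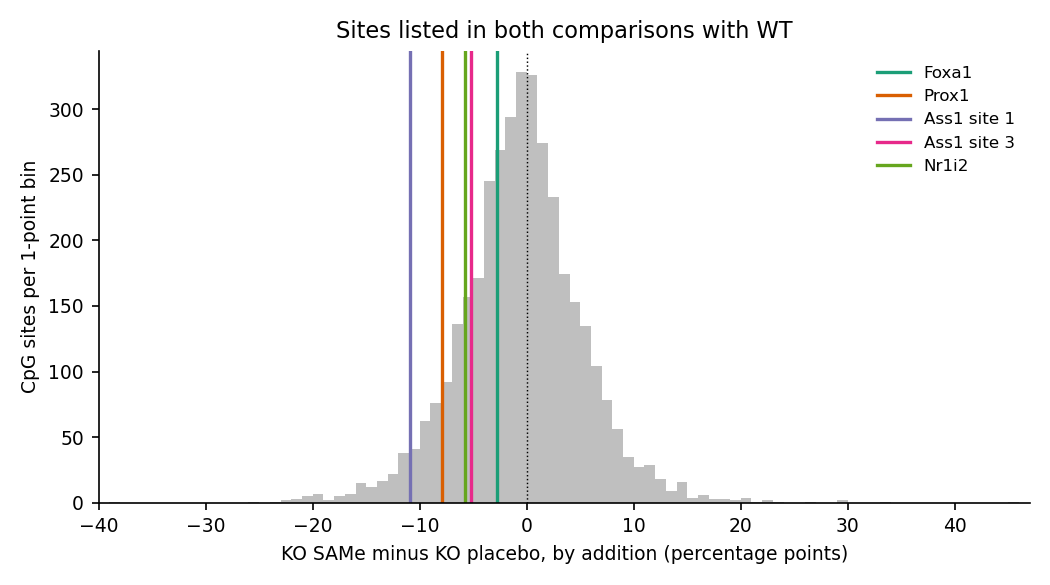
Histogram of KO SAMe minus KO placebo, in percentage points, over the 3707 CpG sites listed in both comparisons with WT (vertical axis, sites per 1-point bin). Coloured lines mark the 5 positions in Foxa1, Prox1, Ass1 and Nr1i2, which run from −10.9 to −2.79, all left of 0 and inside the spread of the other sites.

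The wider pathways were described with 6 gene lists of 117 genes in all, 111 without the 6 genes. Among these 111, 20 genes (18.0%) had a listed site in KO SAMe against WT and 17 (15.3%) in KO placebo against WT, while over all coding genes the share was 10.8% in KO SAMe against WT and 12.5% in KO placebo against WT. A further background used a length range set by the 6 genes, to which the 111 were not held. Among coding genes no shorter and no longer than the 6, the share was 12.4% in KO SAMe against WT, 14.3% in KO placebo against WT and 0.674% in KO SAMe against KO placebo. In that last comparison 1 of the 111 genes had a site (0.901%). All 40 listed sites of the 117 genes in KO SAMe against WT and all 43 in KO placebo against WT were lower in KO. These shares are descriptions, because the lists were written with earlier results of these data known and coverage per gene is unknown. None of the sites lay in the 300-base start window of its own gene, for the genes that the window table holds.

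Of the 15 other hepatocyte identity factors, 2 had a site in KO SAMe against WT and 3 in KO placebo against WT. Nr2f2, an orphan nuclear receptor, had 8 sites in each table, with a mean of −27.6 points in KO SAMe against WT and −23.8 points in KO placebo against WT in the authors' deposited tables. The endodermal zinc finger factor Gata6 had 6 sites in each table, with means of −25.2 points in KO SAMe against WT and −25.0 points in KO placebo against WT in the authors' deposited tables. For Nr2f2 and Gata6 alike, some sites were listed in a single WT comparison, so the means cover partly different sites. The 8 Nr2f2 sites of KO SAMe against WT lay within 117 bp. Gata4 had 1 site at −21.8 points in KO placebo against WT in the authors' deposited table. Between the KO groups, another Gata4 site stood at −20.5 points (q = 0.0453) in the authors' deposited table of KO SAMe against KO placebo. No site was listed in or near Hnf4a, Cebpa, Foxa2, Foxa3 or Onecut1 in any table.

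Of the 22 other hepatocyte product genes, 4 had a site in each WT comparison. The mitochondrial enzyme Nags, which makes the activator of the urea cycle, stood at −33.9 points in KO SAMe against WT and −22.2 points in KO placebo against WT in the authors' deposited tables. Apob, the structural protein of very-low-density lipoprotein, stood at −33.5 points in KO SAMe against WT and −28.8 points in KO placebo against WT in the authors' deposited tables. The transferrin gene Trf reached −32.7 points in KO SAMe against WT and −22.4 points in KO placebo against WT in the authors' deposited tables. Serpina1a, an antitrypsin gene with close copies beside it, stood at −28.9 points in KO SAMe against WT and −23.5 points in KO placebo against WT in the authors' deposited tables. No other urea cycle gene of the list (Cps1, Otc, Asl, Arg1, Slc25a15) had a listed site.

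Bile acid synthesis had 2 of 17 other genes with a site in KO SAMe against WT and 1 of 17 in KO placebo against WT. Baat, which joins bile acids to taurine and glycine, stood at −25.5 points in KO SAMe against WT and −30.1 points in KO placebo against WT at different positions in the authors' deposited tables. Slc27a2, a very-long-chain acyl-CoA synthetase, stood at −26.8 points in KO SAMe against WT in the authors' deposited table. Cyp7a1, the rate-limiting enzyme of the classical pathway, Cyp8b1 and Cyp27a1 had no listed site.

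Bile acid transport had 3 of 15 genes in each WT comparison. Abcc4, an efflux pump of the basolateral membrane on chromosome 14, had the largest difference of the lists, −43.9 points in KO SAMe against WT and −60.3 points in KO placebo against WT at 1 position, in the authors' deposited tables. By subtraction, that position was 16.4 points higher in KO SAMe than in KO placebo. Abcc4 had 5 sites in KO placebo against WT, the others between −27.9 and −22.1 points and not listed in KO SAMe against WT. Mat1a also lies on chromosome 14, as does Gata4, and whether sharing a chromosome with Mat1a matters was not tested. The flippase gene Atp8b1 stood at −38.7 points in KO SAMe against WT and −36.7 points in KO placebo against WT in the authors' deposited tables. Abcg5, a sterol exporter, was listed in KO SAMe against WT (−21.4 points) and the efflux pump Abcc3 in KO placebo against WT (−33.1 points) in the authors' deposited tables. Among the bile acid and xenobiotic receptors, 1 of 19 other genes had a site, the heterodimer partner Rxra, at −36.2 points in KO SAMe against WT and −29.1 points in KO placebo against WT in the authors' deposited tables. The bile acid receptor Nr1h4, its target Nr0b2 and the constitutive androstane receptor Nr1i3 had none.

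**Figure D4:**
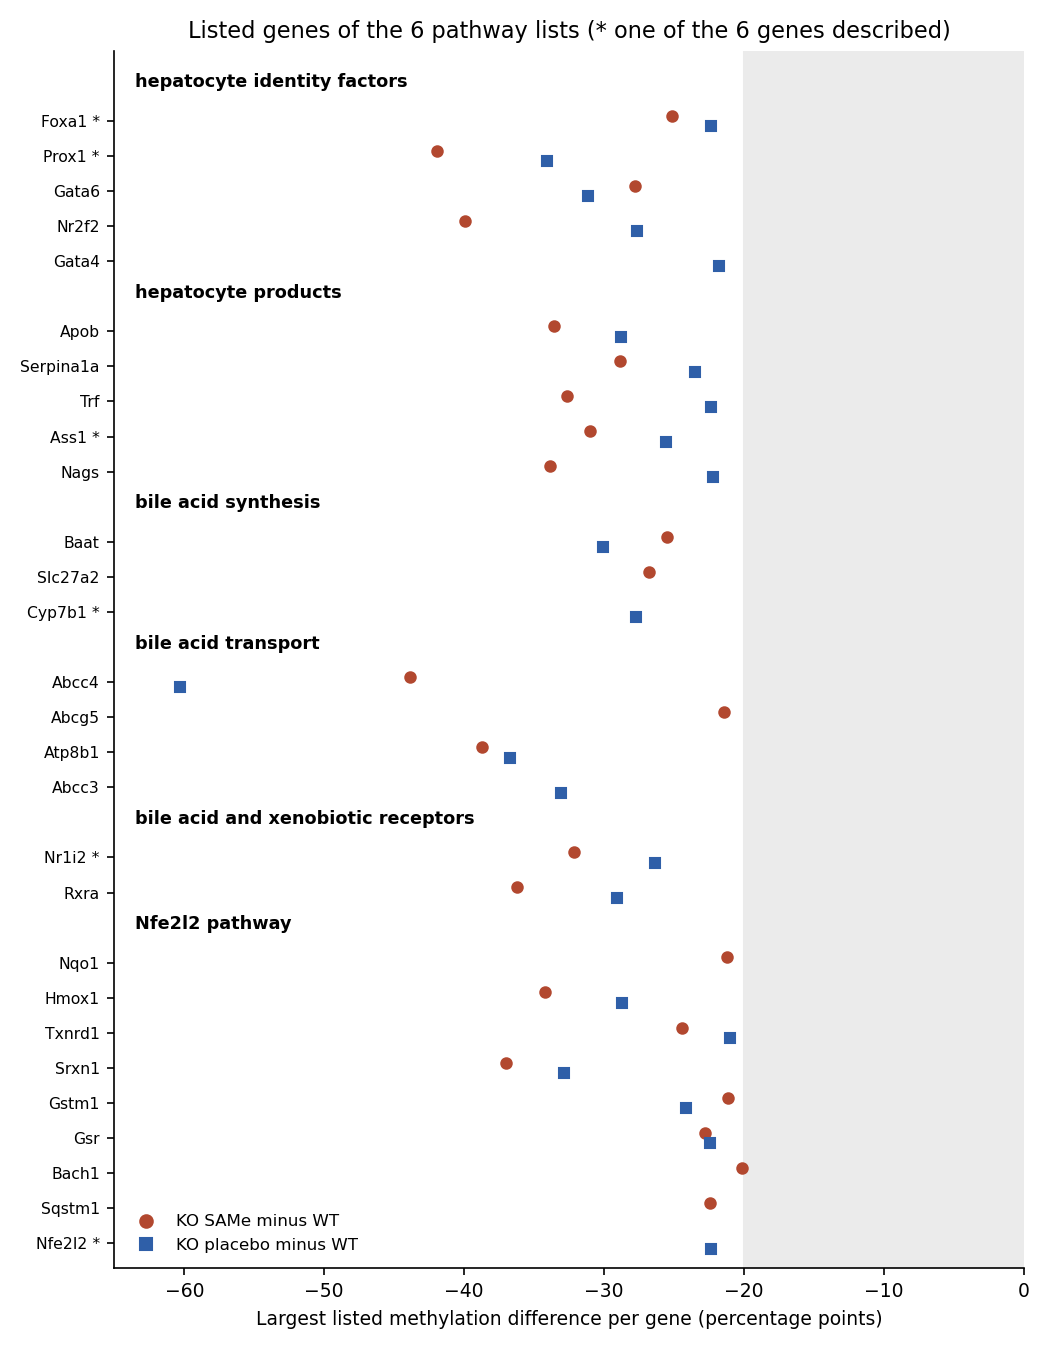
Largest listed difference from WT of each gene of the 6 lists that has a listed site, in percentage points, with circles for KO SAMe minus WT, squares for KO placebo minus WT and an asterisk on the 6 genes described. Circle and square of a gene can come from different positions, and all values lie between −60.3 (Abcc4, KO placebo) and −20.1 (Bach1, KO SAMe).

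In the Nfe2l2 pathway, 8 of 23 other genes (34.8%) had a site in KO SAMe against WT, and 5 of 23 (21.7%) in KO placebo against WT. Only Srxn1 and Hmox1 among the 23 differed by at least 25 points, in both WT comparisons, so these shares rest mostly on sites nearer the threshold. At that limit, 1562 of all 21887 coding genes had a site in KO SAMe against WT and 1716 in KO placebo against WT. Srxn1, which repairs oxidised peroxiredoxins, stood at −37.0 points in KO SAMe against WT and −32.9 points in KO placebo against WT in the authors' deposited tables, 792 bp before its start. Hmox1, the inducible haem oxygenase, reached −34.2 points in KO SAMe against WT and −28.7 points in KO placebo against WT in the authors' deposited tables. The thioredoxin reductase gene Txnrd1 stood at −24.4 points in KO SAMe against WT and −21.0 points in KO placebo against WT in the authors' deposited tables. The glutathione reductase gene Gsr stood at −22.8 points in KO SAMe against WT and −22.4 points in KO placebo against WT in the authors' deposited tables. Gstm1, a glutathione transferase with close copies beside it, stood at −21.1 points in KO SAMe against WT and −24.1 points in KO placebo against WT in the authors' deposited tables, 576 bp before its start. In KO SAMe against WT the quinone reductase Nqo1 (−21.2 points), the repressor Bach1 (−20.1 points) and the autophagy receptor Sqstm1 (−22.5 points) were also listed in the authors' deposited table. Keap1, the inhibitor that marks NRF2 for breakdown, and the glutathione synthesis genes Gclc and Gclm had no listed site.

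**Figure D5:**
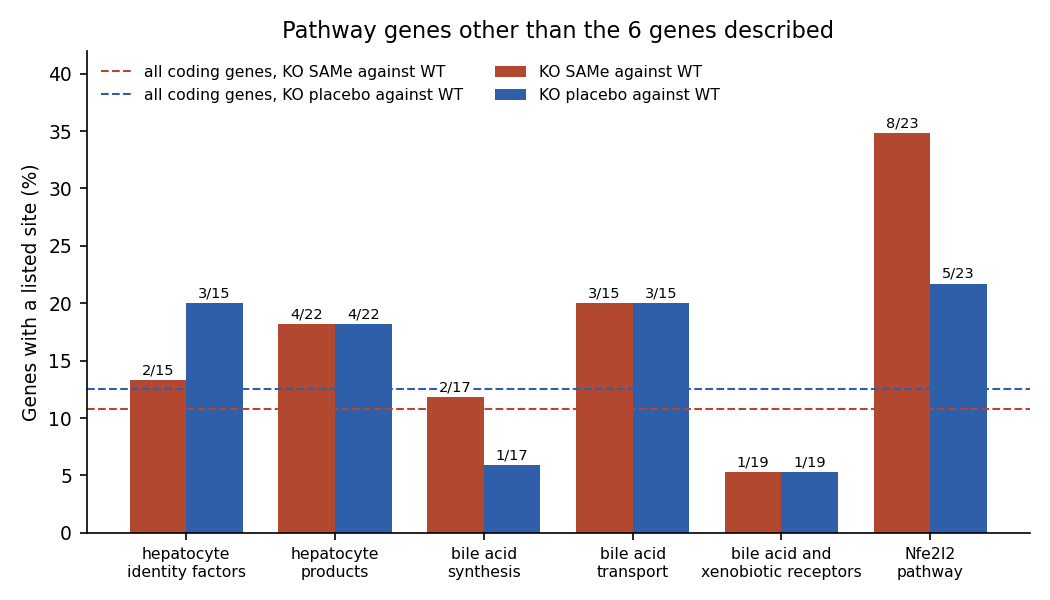
Percent of genes with a listed site in each pathway list, without the 6 genes described, for KO SAMe against WT (left bars) and KO placebo against WT (right bars), with counts above the bars and dashed lines at the shares over all coding genes (10.8% for KO SAMe against WT, 12.5% for KO placebo against WT). Bars run from 5.26% (receptors) to 34.8% (Nfe2l2 pathway) in KO SAMe against WT and from 5.26% (receptors) to 21.7% (Nfe2l2 pathway) in KO placebo against WT. Of the Nfe2l2 pathway genes counted, only Srxn1 and Hmox1 differed by at least 25 points. Of all 21887 coding genes, 1562 did so in KO SAMe against WT and 1716 in KO placebo against WT. With the 6 genes counted, the hepatocyte identity list stands above the Nfe2l2 pathway in KO placebo against WT (5 of 17 genes against 6 of 24).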

How the data were processed

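CASAVA 1.8.2, Trim Galore, Bismark, methylKit and the mm10 build are named per the submitters' processing notes, with no order, role or settings. The p-values and q-values deposited by the authors and their methylation difference, another deposited value in signed percentage points, were used as they stand. The kind of test is not given in the sources used here, and no test was added, since no values per animal were at hand. Depth is unknown. Where a site was in all 3 tables (26 sites) the differences added up within 1e-08 points, so the tables share 1 orientation, taken as KO minus WT and SAMe minus placebo. Sites were assigned to 21887 coding genes (RefSeq, GRCm38.p6). All 145 pairings of a listed site with a RefSeq start window, some sites counting more than once, fell on CpG cytosines of the listed strand. The assignment was tested on simulated data. Values were computed with Python 3.11.15, pandas 2.3.3 and numpy 2.4.6. The 6 genes and the 117 genes of the 6 lists (117 matched) were chosen with earlier results of these data known, and some further genes are not reported here. The text names the 6 genes, every list gene with a listed site, and other coding genes sharing a site with the 6. It also names list genes of known role without a site, picked for that role after the tables were seen. Alternatives were the flank (0 or 5 kb), a difference of at least 25 points, q under 0.01, sites within 1 kb joined, and the median or largest site in place of the mean.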

Additional observations from a re-analysis of the deposited data

How the results depend on the processing

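With a difference of at least 25 points required, the sites of the 6 genes in KO placebo against WT numbered 4 in place of 7. The genes carrying them numbered 4 in place of 6, Foxa1 and Nfe2l2 falling out. All coding genes with a site then numbered 1562 in KO SAMe against WT, 1716 in KO placebo against WT and 17 in KO SAMe against KO placebo. With sites inside genes alone, the lists lost Foxa1, Gstm1 and Srxn1. With a 5 kb flank, bile acid synthesis had 4 genes in each WT comparison in place of 2, Acox2 and Hsd3b7 being added. The identity list gained Tbx3, giving 2 genes in KO SAMe against KO placebo in place of 1. In KO placebo against WT, Tbx3 brought the identity list to 6 genes in place of 5. The receptor list gained Nr1h3, giving 3 genes in each WT comparison in place of 2. Without the 6 genes, a choice made after seeing the data, the identity list had 2 genes in KO SAMe against WT and 3 in KO placebo against WT, the receptor list 1 in each WT comparison and bile acid synthesis 1 in KO placebo against WT. The Ass1 summary was −30.8 points as a median and −31.0 as the largest site in KO SAMe against WT, and −25.6 as the largest site in KO placebo against WT. A limit of q under 0.01 left the counts of the 6 genes as they were. It could not change them, since the largest q-value the authors list at their sites was 3.19e-04. Joining sites within 1 kb gave 5 regions in place of 6 sites in KO SAMe against WT. No paired analysis was possible because the labels carry animal codes and the tables no values per animal, and no animal could be left out for the same reason. Depth limits every missing site, since a site under the coverage needed cannot be told from one under the thresholds.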
